A study of Homo sapiens with 6 samples.

Results

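DEK peaks in the short-arm subtelomeres were taken as the peaks of both DEK lists whose start lay in the first 3 Mb of chromosomes 1 to 12 and 16 to 20. These 17 segments held 7315 of the 167796 DEK peaks, 248 of 15017 in replicate 1 and 7067 of 152779 in replicate 2. The acrocentric and the sex chromosomes were left out, and the rest of the same 17 chromosomes served as the comparison, with 12205 and 121714 peaks. The peaks came from ChIP-seq in U937, an established human myeloid line, grown untreated and crosslinked with formaldehyde. All 6 samples came from this 1 line: 2 precipitations with an antibody to DEK, 2 with an antibody to H3K4me3 and 2 inputs, and the inputs were not analysed here. The study calls its 2 DEK precipitations independent and made under the same conditions. No label ties the precipitations to separate cultures, so their spread may be technical.

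A subtelomere is the stretch of a chromosome arm just inside the terminal telomere repeat. On many human short arms it is rich in genes, in G and C bases and in tandem repeats. DEK is an abundant nuclear protein that binds DNA and histones, changes DNA topology and has been linked to both open chromatin and heterochromatin. H3K4me3 is the histone mark found at the start sites of active genes, and it was used here as a second antibody counted in the same segments.

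The peak lists differed widely in length and in their statistics, so the segments were compared with the rest within each list. In the segments, replicate 1 peaks held between 21 and 469 tags (median 61) and replicate 2 peaks between 12 and 630 tags (median 25). The false discovery rate that the peak caller gave was 100% for every replicate 1 peak and between 0.74% and 16.67% for replicate 2 peaks, both in the segments and in the rest. The lists give tags only within peaks, 19895 in replicate 1 and 282773 in replicate 2 for the segments, and they do not give the depth of each library. The study states only a minimum number of reads per sample.

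The intervals shared by both lists with most tags lay at AP3D1 and DOT1L, SPON2 and MOB3A, and the reference bases at their middles are shown to make the kind of sequence visible. The bases are from the plus strand of GRCh37, the build of the files, with CG dinucleotides in capitals. Only the longest stretch outside annotated exons is given for SPON2, with 152 bases, and for MOB3A, with 84 bases.
AP3D1 and DOT1L, chr19:2167006-2167305: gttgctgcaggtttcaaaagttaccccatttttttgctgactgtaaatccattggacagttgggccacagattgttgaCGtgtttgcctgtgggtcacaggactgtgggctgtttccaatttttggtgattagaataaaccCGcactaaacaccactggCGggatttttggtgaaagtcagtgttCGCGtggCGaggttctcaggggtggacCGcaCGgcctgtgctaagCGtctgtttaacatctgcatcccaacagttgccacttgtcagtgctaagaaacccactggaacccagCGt
SPON2, chr4:1194905-1195056: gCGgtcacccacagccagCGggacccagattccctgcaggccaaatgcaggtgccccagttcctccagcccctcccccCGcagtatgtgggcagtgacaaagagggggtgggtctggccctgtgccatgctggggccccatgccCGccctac
MOB3A, chr19:2085392-2085475: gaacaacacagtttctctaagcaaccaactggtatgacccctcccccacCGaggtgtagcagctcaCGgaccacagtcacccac
The AP3D1 and DOT1L window held 10 CG dinucleotides at 49.7% GC and the SPON2 stretch 4 at 68.4% GC. The MOB3A stretch held 2 at 56.0% GC.

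Other kinds of sequence are known from chromosome ends, namely tandem repeats and copies of the telomere unit TTAGGG. The repeat-rich shared intervals with most tags in the weaker list lay in introns of RPH3AL and C7orf50, and their windows are shown with every base of a 12-base word that occurs again in the window in capitals. Stretches of 2 peaks with adjacent telomere units are also shown, both from replicate 2 and neither shared, with each unit in capitals on whichever strand it was read. These sets were picked after their values were seen.
RPH3AL repeat, chr17:164971-165270: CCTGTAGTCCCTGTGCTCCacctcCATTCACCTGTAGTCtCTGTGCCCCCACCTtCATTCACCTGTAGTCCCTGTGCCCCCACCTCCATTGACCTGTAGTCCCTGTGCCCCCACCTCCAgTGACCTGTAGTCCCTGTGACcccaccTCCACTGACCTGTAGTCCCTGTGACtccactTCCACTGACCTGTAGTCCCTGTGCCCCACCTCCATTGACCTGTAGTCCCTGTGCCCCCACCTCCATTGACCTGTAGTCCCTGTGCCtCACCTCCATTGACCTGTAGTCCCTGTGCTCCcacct
C7orf50 repeat, chr7:1156015-1156314: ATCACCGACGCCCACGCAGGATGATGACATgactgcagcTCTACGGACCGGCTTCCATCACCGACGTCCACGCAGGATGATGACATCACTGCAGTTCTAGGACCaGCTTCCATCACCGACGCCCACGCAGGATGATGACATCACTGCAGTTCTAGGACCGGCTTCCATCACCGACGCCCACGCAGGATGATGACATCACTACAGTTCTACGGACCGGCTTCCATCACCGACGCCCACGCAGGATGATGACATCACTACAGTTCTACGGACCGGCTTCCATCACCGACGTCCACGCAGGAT
SPPL2B telomere unit, chr19:2345413-2345488: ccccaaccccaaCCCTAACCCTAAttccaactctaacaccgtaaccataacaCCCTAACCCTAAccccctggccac
GPR146 telomere unit, chr7:1102577-1102612: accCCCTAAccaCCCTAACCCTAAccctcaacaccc
The RPH3AL and C7orf50 windows were 91.3% and 96.7% repeat. The RPH3AL peak held 118 tags in replicate 1 and 102 in replicate 2, and the C7orf50 peak held 90 and 129. The telomere units near SPPL2B and GPR146 lay in peaks of 60 and 46 tags.

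The first question was whether DEK peaks were denser in the short-arm ends than in the rest of the same chromosomes, and the lists gave different answers. Replicate 2 had 139 peaks per Mb in the segments and 50.6 in the rest, a ratio of 2.74, whereas replicate 1 had 4.86 and 5.07, a ratio of 0.958. Replicate 2 was denser in the segment on 14 chromosomes and sparser on 3 (exact two-sided sign test over chromosomes, p = 0.0127, adjusted p = 0.0954 over the 15 sign tests). With an exact Wilcoxon signed-rank test in its place, which weighs the sizes of the differences, the adjusted p was 0.0126. Replicate 1 was denser on 6 chromosomes and sparser on 11 (exact sign test, p = 0.332, adjusted p = 0.623).

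The replicate 2 density differed among the segments from 6.67 peaks per Mb on chromosome 9 to 294 on chromosome 19. Chromosome 19 is the most gene-dense human chromosome, and its rest was also dense, with 130 per Mb. The next segments were those of chromosome 7 with 263 per Mb against 58.8 in its rest, chromosome 16 with 256 against 56.4, chromosome 4 with 222 against 28.7 and chromosome 1 with 220 against 50.6. The ratio was therefore largest on chromosome 4, at 7.76. Chromosomes 11 and 5 followed with 187 and 182 per Mb. The 3 chromosomes whose segment was sparser were chromosome 9, chromosome 3 with 28 against 54 and chromosome 6 with 45.7 against 48.4. When every chromosome was divided into 3 Mb blocks, the short-arm segment had the highest replicate 2 density on 7 chromosomes and was among the top 5 blocks on 11.

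In replicate 1 the densest segments were others: chromosome 20 with 12.3 peaks per Mb against 4.11 in its rest, chromosome 12 with 10.3 against 5.36 and chromosome 4 with 8.33 against 3.57. The chromosome 16 segment, among the densest in replicate 2, had 1.67 per Mb against 3.97 in its rest. Chromosome 4 was the only one of the 5 densest replicate 2 segments with a replicate 1 density well above that of its rest, with a ratio of 2.33. Some of these segments hold few replicate 1 peaks, with 2 on chromosome 9, 3 on chromosome 2 and 5 on chromosomes 3 and 16 each. The ratio of segment to rest was higher in replicate 2 than in replicate 1 on 14 of 17 chromosomes, with a median difference of 1.43 on the log2 scale (exact two-sided sign test, adjusted p = 0.0191 over 3 contrasts added after the data were seen). This test compares these 2 libraries of the same antibody, with their chromosomes as units.

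**Figure D1:**
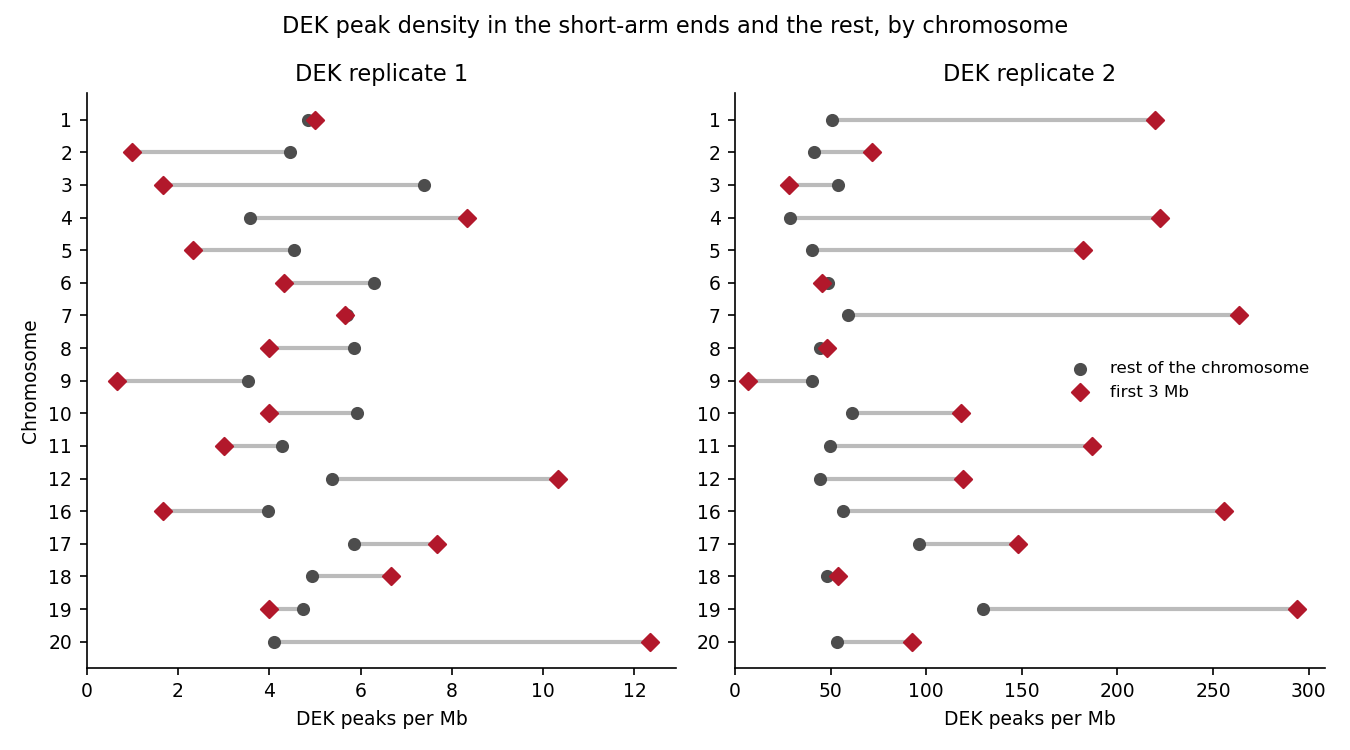
DEK peaks per Mb for each of the 17 chromosomes in the first 3 Mb (red diamonds) and in the rest of the chromosome (grey circles), with a line joining both, for replicate 1 (left) and replicate 2 (right). In replicate 2 the diamonds lie to the right on 14 chromosomes and reach 294 on chromosome 19, and in replicate 1 they lie to the right on 6.

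H3K4me3 peaks were also denser in the segments in sum. H3K4me3 replicate 1 had 24.9 peaks per Mb against 15.9 in the rest, higher on 13 chromosomes (exact sign test, adjusted p = 0.245), and replicate 2 had 15.6 against 9.71, higher on 10 (adjusted p = 0.944). Neither passed the test. The other added contrasts set the DEK replicate 2 ratio against each H3K4me3 list. It was higher than that of H3K4me3 replicate 1 on 13 chromosomes and of H3K4me3 replicate 2 on 14. The adjusted p was 0.0490 and 0.0191 (exact two-sided sign tests over the 3 contrasts). The H3K4me3 ratios of 1.57 and 1.61 lay between those of the DEK lists, 0.958 and 2.74, so no difference between the antibodies is drawn.

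The replicate 2 density did not end at 3 Mb. It was 116 peaks per Mb of called bases in the first 0.5 Mb, 165 between 0.5 and 1 Mb, and 123 between 2.5 and 3 Mb just inside the boundary. Between 3 and 4 Mb, just outside, it was also 123, and it was 81.4 between 4 and 5 Mb and 60.8 between 10 and 20 Mb. Replicate 1 had its lowest value, 3.93, between 1 and 1.5 Mb, 6.15 between 2.5 and 3 Mb and 6.85 between 3 and 4 Mb. The GC content fell from 49.3% between 0.5 and 1 Mb to 41.8% between 10 and 20 Mb.

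**Figure D2:**
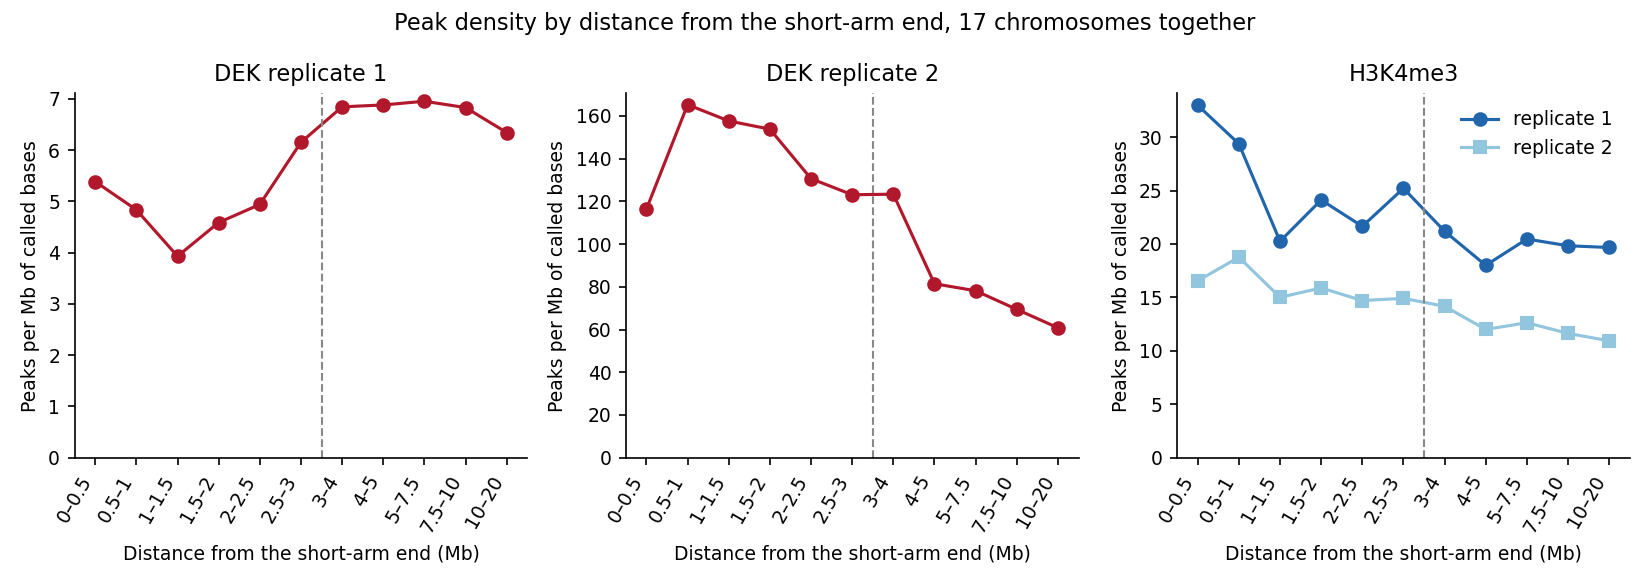
Peaks per Mb of called bases against the distance from the short-arm end in Mb, over all 17 chromosomes, for DEK replicate 1, DEK replicate 2 and both H3K4me3 lists, and a dashed line at 3 Mb. Replicate 2 falls from 165 between 0.5 and 1 Mb to 60.8 between 10 and 20 Mb, and replicate 1 is at its lowest, 3.93, between 1 and 1.5 Mb.

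DEK replicate 2 peaks came close to the terminal bases of the assembly. The first peak started less than 5 kb from the first called base on 8 of 17 chromosomes, with the nearest on chromosome 16 at 0.759 kb and a median of 6.75 kb. In replicate 1 no chromosome had a peak so near, and the nearest was on chromosome 7 at 21.9 kb, with a median of 210 kb. The lists differ in length, so these distances describe each list and are no comparison of the precipitations.

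The short-arm ends also differ from the rest in base composition and gene content. Their GC content was 47.8% against 40.8%, and they held 154 annotated transcription start sites (TSS) per Mb against 73.7. The part of either in the density was not tested. Across the 17 segments, the replicate 2 density went with GC content (Pearson correlation 0.93, Spearman correlation 0.91, a description over segments that share 1 library), and for the replicate 1 density the correlations were 0.0045 and 0.064.

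When 100 kb windows were grouped by GC content, the replicate 2 density rose from 33.5 peaks per Mb below 38% GC to 284 at 54% GC or more in the segments, and from 21.6 to 241 in the rest. It was higher in the segments in 5 of the 6 groups, with 195 against 164 at 50 to 54% GC. The exception was the group at 38 to 42% GC, with 39.1 against 40.2. Weighted to the same GC content, the replicate 2 ratio was 1.18 in place of 2.74. Replicate 1 was lower in the segments in each of the 6 groups, with 3.62 against 4.85 at 54% GC or more, and its weighted ratio was 0.816. The weighted ratios of H3K4me3 were 1.01 and 0.942.

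**Figure D3:**
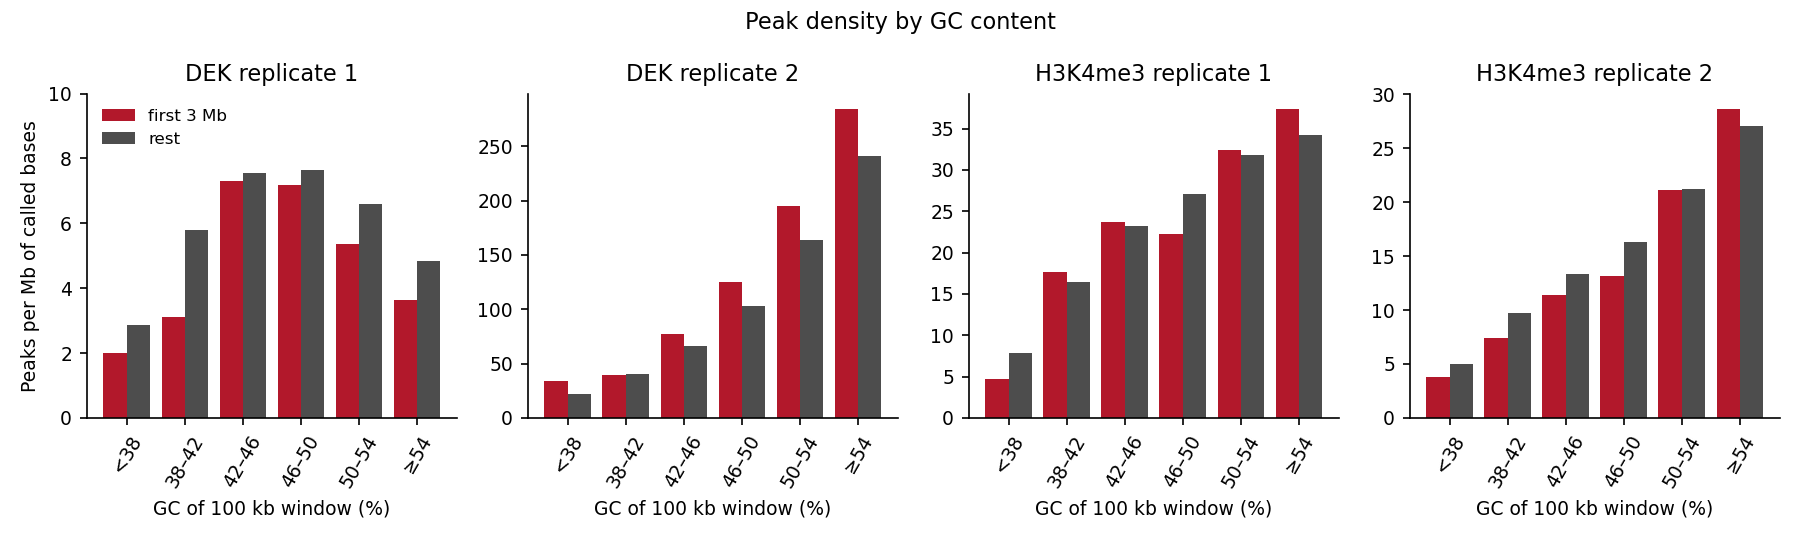
Peaks per Mb of called bases in 100 kb windows grouped by GC content (percent), in the first 3 Mb (red bars) and in the rest (grey bars), for both DEK and both H3K4me3 lists. DEK replicate 2 rises with GC content to 284 in the segments and 241 in the rest, while DEK replicate 1 is highest between 42 and 50% GC.

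The long-arm ends gave the nearest comparison. In the last 3 Mb of the same 17 chromosomes replicate 2 had 144 peaks per Mb, so that the ratio of short-arm to long-arm end was 0.965. The corresponding ratio was 0.905 in replicate 1, with 248 peaks against 274.

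Peaks of replicate 2 were broad and close together on a few short arms. They covered 17.3% of the bases of the segments and 4.38% of the rest, and the cover reached 55.0% on chromosome 7, 49.8% on chromosome 19, 39.9% on chromosome 4 and 32.5% on chromosome 1. It was 0.480% on chromosome 9. The median gap between neighbouring peaks was 1813 bp in the segments and 6465 bp in the rest. Peaks of at least 3000 bp made up 6.03% of the replicate 2 peaks in the segments, 426 in number, and 1.09% in the rest. Replicate 1 peaks covered 0.675% of the segments and 0.613% of the rest.

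The median replicate 2 peak had 25 tags and 881 bp in the segments and 20 tags and 695 bp in the rest. Chromosome by chromosome, however, the median tags were higher in the segment on 7 and lower on 9 (exact sign test, adjusted p = 1.0), and the width was higher on 8 and lower on 9 (adjusted p = 1.0). Chromosomes 7, 4, 19 and 1 had the highest median tags of the replicate 2 segments, and held 42.4% of the replicate 2 peaks of the segments. Chromosome 7 had a median of 53 tags against 21 in its rest, chromosome 4 had 43 against 19, chromosome 19 had 39 against 28 and chromosome 1 had 32 against 20. Chromosome 12 had 26 against 18. Without chromosomes 7, 4, 19 and 1 the medians were 18 tags and 700 bp against 19 tags and 681 bp. These 4 were picked for their high median tags, so the fall in median tags followed from the choice. The density without them was 104 per Mb against 49.7, a ratio of 2.1.

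The replicate 1 medians were 61 tags and 1170 bp in the segments and 47 tags and 1009 bp in the rest. Both were higher in the segment on 11 chromosomes and lower on 6 (exact sign tests, adjusted p = 0.623 each). The highest was on chromosome 19, with a median of 150 tags and 2264 bp against 79 tags and 1446 bp.

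**Figure D4:**
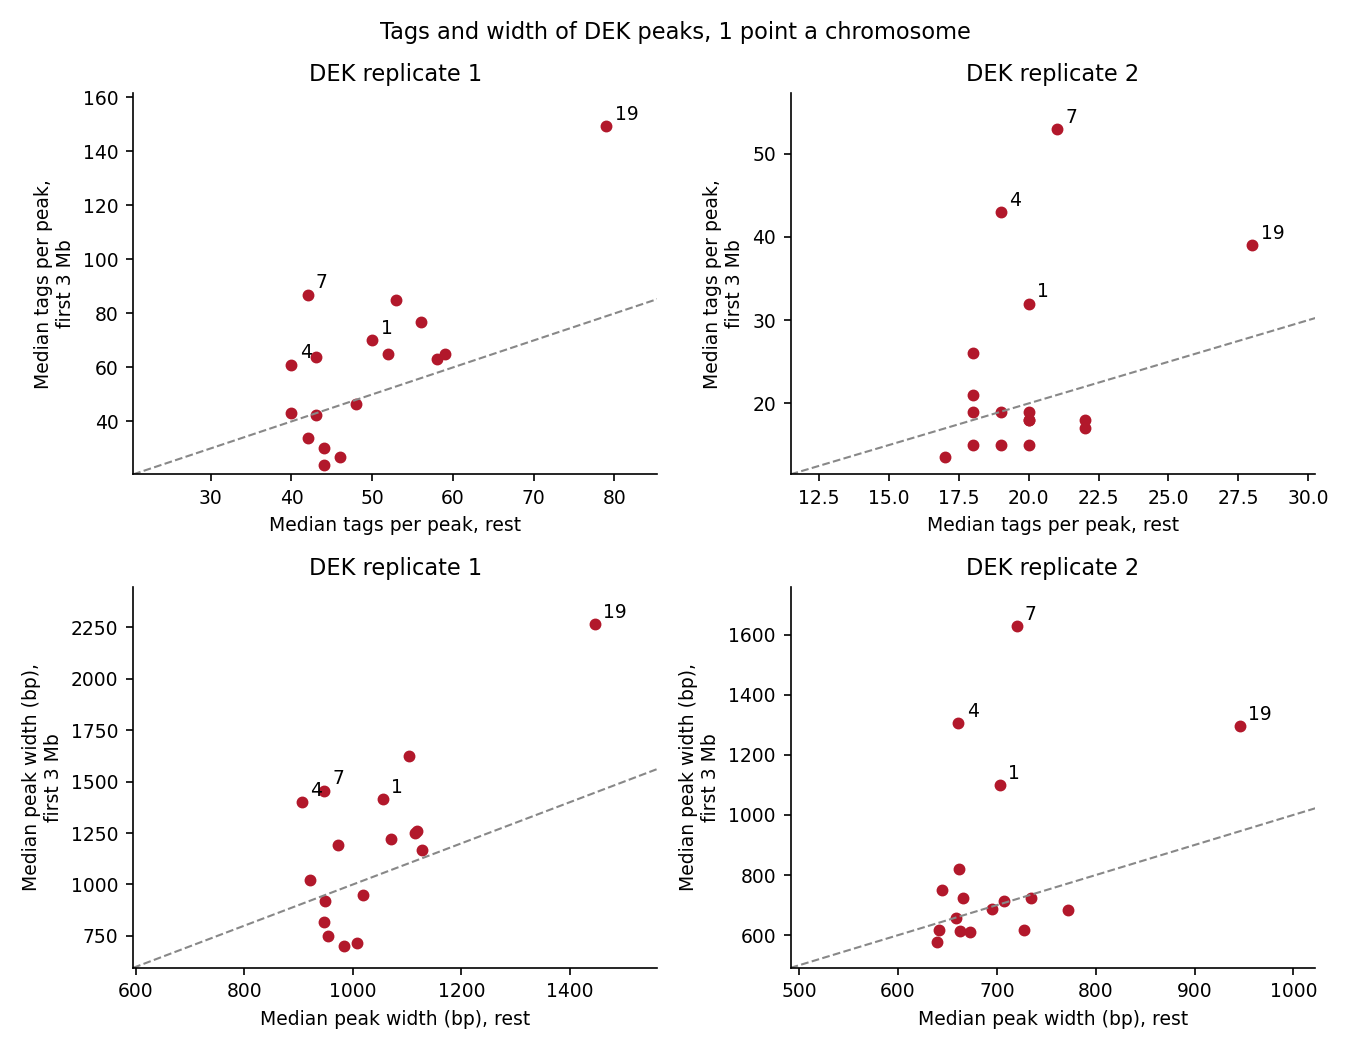
Median tags per DEK peak (top) and median DEK peak width in bp (bottom) in the first 3 Mb against the rest of the same chromosome, with 1 point a chromosome and a dashed line of equality, for replicate 1 (left) and replicate 2 (right). In replicate 2 the chromosomes marked 1, 4, 7 and 19 stand above the line, with 53 tags on chromosome 7. Chromosome 12, not marked, also stands above it, with 26 tags against 18. The median tags lie below the line on 9 chromosomes.

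The second question was how many of these peaks both precipitations found. In replicate 1, 96 of the 248 peaks of the segments were met by a replicate 2 peak, 38.7% (95% Wilson interval 32.9 to 44.9) against 27.3% in the rest and 27.4% of all replicate 1 peaks. The share was higher on 12 chromosomes and lower on 5 (exact sign test, adjusted p = 0.430). Replicate 2 peaks covered 17.3% of the segments and 4.38% of the rest, and the part of this cover in the share was not tested.

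In replicate 2, 111 of 7067 peaks were met by a replicate 1 peak, 1.57% (95% Wilson interval 1.31 to 1.89) against 2.96% in the rest and 2.9% of all replicate 2 peaks. The share was lower in the segment on 15 of 17 chromosomes, which passed the test (exact sign test, adjusted p = 0.0352). The adjusted p was 0.0954 for the first 5 Mb and for overlaps of at least 50% of each peak, and 0.245 for peaks with a score of at least 100. Chromosomes 12 and 20 were the exceptions, with 3.91% against 3.27% and 4.32% against 2.20%. The share has all replicate 2 peaks as its denominator, and these were 2.74 times as dense in the segments. The met replicate 2 peaks themselves numbered 2.18 per Mb in the segments and 1.50 in the rest, where 3603 were met. The replicate 1 cover was 0.675% in the segments and 0.613% in the rest.

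Shared DEK intervals, the intersections of both lists, numbered 111 in the segments and 3615 in the rest. Their density was 2.18 per Mb against 1.50, higher on 9 chromosomes and lower on 8 (exact sign test, adjusted p = 1.0). Weighted to the same GC content the ratio was 0.786 in place of 1.45, and against the long-arm ends it was 0.677. Chromosomes 19, 12, 4, 20 and 7 held 68 of the 111 intervals, 61.3%, with 16 on chromosome 19. Chromosomes 6 and 9 held none. The replicate 1 peak had more tags than the replicate 2 peak at 88 intervals and fewer at 22. Tags were not normalized between lists, and the same replicate 1 peak can count at several intervals. These counts are therefore no comparison of the precipitations.

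By position, the middles of 64 shared intervals lay in introns of protein-coding genes, 10 in exons, 12 in noncoding genes and 25 in no gene. A start site of any gene lay within 1 kb of 30 intervals, 27.0% against 26.2% of the shared intervals in the rest. Peaks of both H3K4me3 lists met 39 of them, 35.1% against 34.1% in the rest. Their median width was 899 bp and the narrowest was 5 bp.

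Of the shared intervals, 12 are named by their tags in the weaker list. The strongest, with 324 tags in replicate 1 and 213 in replicate 2, was nearest to the start of AP3D1, a subunit of the AP-3 adaptor complex, and lay in an intron of DOT1L, the histone H3 lysine methyltransferase. SPON2, a secreted matrix protein, had 327 and 211 tags at 91 bp from its start. MOB3A, of the MOB family of kinase regulators, had 211 and 189 tags at 13 bp.

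An interval 1900 bp upstream of CHST12, a chondroitin sulfotransferase, had 469 tags in replicate 1, the most of any replicate 1 peak in the segments, and 179 in replicate 2. SUN1, a protein of the inner nuclear membrane, had 251 and 166 tags at 2622 bp upstream. SH3BP2, a signalling adaptor of immune cells, had 157 and 389 tags, and CTBP1, a transcriptional corepressor, had 139 and 268. The tags are those of the whole peak in each list. At SH3BP2 the shared interval spanned 1049 bp, and its peaks spanned 3145 bp in replicate 1 and 8504 bp in replicate 2. These tags were not normalized between lists, and the order of the peaks within a list is what they show.

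The other named intervals were at NADK, the kinase that makes NADP, with 172 and 149 tags, at PWWP3A with 132 and 185, at ARHGAP45 with 167 and 131, at OAZ1, the antizyme that controls polyamine synthesis, with 377 and 130, and at GADD45B, a stress-induced gene, with 298 and 130. Of these 12 intervals, 8 were met by both H3K4me3 lists, beside 39 of all 111 shared intervals of the segments (35.1%). The 12 were picked for their tags, and most were wider than the median of 899 bp. The higher count is therefore no result about these genes. The interval at CTBP1 was the one met by neither.

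**Figure D5:**
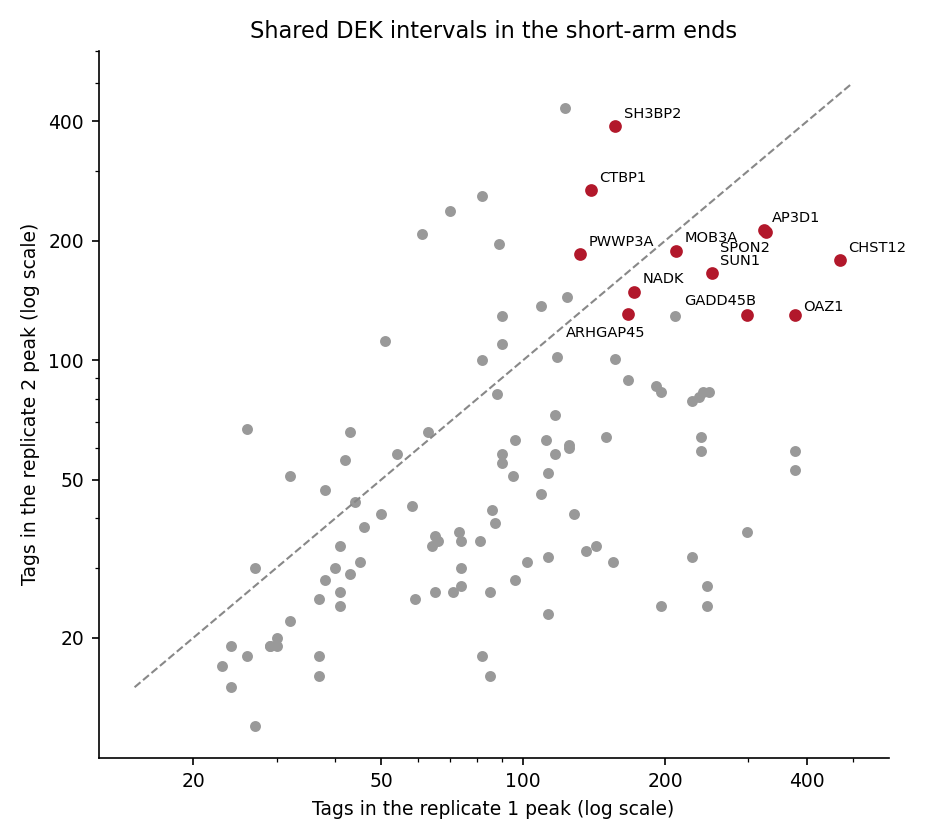
Tags in the replicate 2 peak against tags in the replicate 1 peak for the 111 shared DEK intervals of the segments, both on log axes, with the 12 named intervals in red and a dashed line of equality. SH3BP2, CTBP1 and PWWP3A lie above the line, and 88 of the 111 intervals lie below it. Tags were not normalized between the lists.

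A shared interval lay within 1 kb of a coding start site at 24 positions, among them those of SPON2, MOB3A, NADK, CTBP1, OAZ1 and GADD45B. NUDT1, which hydrolyses oxidized purine nucleotides, had 123 tags in replicate 1 and 431 in replicate 2, where the peak spanned 10108 bp. UQCR11, a subunit of respiratory complex III, had 89 and 196 tags, and CACNA2D4, a calcium channel subunit, had 196 and 83. Several genes were the nearest to more than 1 shared interval, with 5 at CACNA1C, the gene of an L-type calcium channel on chromosome 12. CACNA2D4 was nearest to 4, and AXIN1, RAP1GAP2, SH3BP2 and SKI to 3 each. At these last 5 genes some of the intervals were parts of the same replicate 1 peak, which met more than 1 replicate 2 peak. They are therefore not all separate sites.

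Among peaks found in 1 list alone, those with most tags in replicate 2 were at NELFA, a subunit of the negative elongation factor, with 630 tags over 12244 bp, at TACC3, a spindle protein, with 554 tags, and at EIF3B, a translation initiation factor, with 554 tags over 10168 bp. None of the 3 was met by an H3K4me3 peak. In replicate 1 they were nearest to FAM20C with 356 tags, 157005 bp upstream of its start and next to a shared interval, to GPX4, which reduces lipid peroxides, with 198 and to RAP1GAP2 with 197. The peaks nearest to FAM20C and GPX4 were met by both H3K4me3 lists.

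Peaks near start sites made up 19.4% of the replicate 1 peaks in the segments (48 of 248) against 16.2% in the rest and 16.3% of all. In replicate 2 they made up 21.6% (1525 of 7067) against 16.6% in the rest and 16.7% of all. Neither passed the test by chromosome (exact sign tests, higher on 8 and 9 of 17, adjusted p = 1.0 each). Peaks of both H3K4me3 lists met 30.2% of the replicate 1 peaks (75 of 248) against 33.4% in the rest and 32.9% of all, higher on 5 chromosomes and lower on 12 (exact sign test, adjusted p = 0.430). In replicate 2 they met 7.94% (561 of 7067) against 7.85% and 7.74% of all, higher on 7 and lower on 10 (exact sign test, adjusted p = 0.944). At shared replicate 2 peaks the share was 36.0%, and at unshared ones 7.49%, as against 34.3% and 7.04% in the rest.

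Of the 700 protein-coding genes with a start in the segments, 520 (74.3%) had a replicate 2 peak within 1 kb of a start site, 38 (5.43%) a replicate 1 peak and 25 (3.57%) a shared interval. The corresponding shares of the 16305 genes in the rest were 57.3%, 8.54% and 4.39%. Of 129 genes of 17 lists of genes and clusters known from these regions, 95 had a replicate 2 peak, 12 a replicate 1 peak and 8 a shared interval.

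The 8 genes were GADD45B, NDUFS7, UQCR11, OAZ1, CTBP1, SIRPB2, ISG15 and NUDT1. NDUFS7, a subunit of respiratory complex I, had 117 tags in replicate 1 and 73 in replicate 2 at its first interval. ISG15, an interferon-induced ubiquitin-like protein, had 82 and 100 tags, and SIRPB2, of the signal regulatory protein family of myeloid cells, had 143 and 34. The first 4 of the 8 came from a list of 28 further genes of 19p13.3, of which 23 had a replicate 2 peak and 4 a replicate 1 peak.

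The counts for single clusters are of genes with a peak within 1 kb of a start site, and stand beside 74.3% for replicate 2 and 5.43% for replicate 1 over the 700 genes, so that few or no replicate 1 peaks in a cluster of this size are no result about it. All 9 genes of the telomerase region on chromosome 5 and all 8 of the FGFR3, TACC3 and LETM1 region on chromosome 4 had a replicate 2 peak there. TERT, the catalytic subunit of telomerase, held 10 replicate 2 peaks of up to 120 tags in its body. Of the 10 genes of the alpha-globin cluster and its neighbours 6 had one, and of the 4 genes of the neutrophil protease cluster 3 had one. AZU1, PRTN3 and ELANE, which encode granule proteins of neutrophils, were overlapped by 4, 4 and 2 replicate 2 peaks of up to 151, 75 and 245 tags. Peaks with their middle in the gene numbered 2, 3 and 1. Of the 6 genes listed for the forkhead and IRF region at the end of chromosome 6, only DUSP22 had a replicate 2 peak. The forkhead genes FOXQ1, FOXF2 and FOXC1 had none, and IRF4 had none of either list.

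Of the other lists, the 8 growth and chromatin regulators of 16p13.3, among them AXIN1, TSC2 and PKD1, and the 3 serpin B genes of chromosome 6 all had a replicate 2 peak and no replicate 1 peak within 1 kb of a start site. AXIN1 held 2 replicate 1 peaks in its body. Among the 5 interferon-induced genes of 11p15.5, 4 had a replicate 2 peak, as did 4 of the 7 imprinted genes, where SLC22A18 also had a replicate 1 peak of 82 tags, and 2 of the 4 mucin genes. Of the 14 chromatin and transcription regulators 12 had a replicate 2 peak and 2 a replicate 1 peak. For the 6 listed genes of replication, repair and mitosis these numbers were 4 and 1. All 4 TNF receptor and interferon genes of chromosome 1 had a replicate 2 peak and 1 had a replicate 1 peak. The 5 SIRP genes were even, with 2 in each list. Of the 3 neuronal adhesion genes and the 5 genes of the DOCK8 region 1 each had a replicate 2 peak, and DOCK8 had a replicate 1 peak of 21 tags.

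Tandem repeats, as in the RPH3AL and C7orf50 windows shown above, were also common in windows laid over the whole segments. Those windows include the ones inside DEK peaks, and windows without a peak were not counted separately. A window of 301 bp was counted as repeat-rich when at least 25% of its bases lay in a 12-base word that occurred again. This held for 8.87% of the replicate 1 peak middles in the segments (22 of 248) and 6.89% of the replicate 2 middles (487 of 7067), and for 6.21% of 9987 windows laid every 5 kb over the segments. In the rest the shares were 1.69%, 2.45% and 1.52%. Replicate 2 was higher in the segment on 13 chromosomes and lower on 4 (exact sign test, unadjusted p = 0.0490), and replicate 1 was higher on 9 and lower on 8 (unadjusted p = 1.0).

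At least 2 adjacent copies of the telomere unit, TTAGGG or CCCTAA on the plus strand, occurred in 7 of the 7067 replicate 2 peaks of the segments and in 0 of the 248 replicate 1 peaks. In the rest they occurred in 28 of 121714 replicate 2 peaks, 0.0230% against 0.0991%, and in 3 of 12205 replicate 1 peaks, and replicate 2 peaks were wider in the segments. In 301 bp windows they occurred at 3 replicate 2 peak middles and in 17 of the 9987 windows laid over the segments, 0.170%, against 0.00435% in the rest. The match describes these letters only.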

How the data were processed

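The peaks were deposited by the authors for each precipitation separately, after alignment to hg19 with Bowtie 2 and peak calling with MACS 1.4.1. Per the submitters' processing notes no Bowtie 2 version is given. For each DEK peak the deposited lists give a count of tags, a score, which in MACS is the −log10 of a p-value multiplied by 10, a fold enrichment (ratio) over the local background and the false discovery rate as a percent. The deposited H3K4me3 lists give positions, and their calling settings are not given in the sources used here. None of these values was normalized by the authors between samples.

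Peaks with a start in the first 3 Mb of 17 chromosomes were compared with the rest of the same chromosomes, each list by itself. A peak counted as shared at an overlap of at least 1 bp. Distances ran from the middle of a peak to the nearest TSS of GENCODE release 44 mapped to GRCh37, the build of the files. Chromosomes were the units of an exact two-sided sign test, with Benjamini-Hochberg adjustment over 15 tests and a threshold of 0.05. Shares have 95% Wilson intervals, which cover counting error only. Alternatives were segments of 1, 2 and 5 Mb, a score of at least 100, overlaps of 50%, TSS within 2 kb, GC strata of 100 kb windows, the long-arm ends, a Wilcoxon test and each replicate left out.

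Named genes are the 12 shared intervals with the highest lower tag count, the 10 such genes within 1 kb of a coding start, the 3 unshared peaks with most tags in each list and listed genes with a shared interval. Members and gene lists were chosen with earlier results of these data known. Computation was in Python 3.11.15 with SciPy 1.17.1, pandas 2.3.3 and NumPy 2.4.6, figures were drawn in Matplotlib 3.10.9, and the overlaps, covered bases and sign test were tested on simulated data. The inputs were not analysed here, and some sequences within the rule for display are not reported here. The lists do not give the depth of each library, so the precision of tag counts between lists was not estimated.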

Additional observations from a re-analysis of the deposited data

How the results depend on the processing

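Of 110 recomputed values, 87 kept their direction and their side of the threshold. A direction turned with the stretch compared, the length of the segment, the score, GC strata or a replicate left out, and among these only the sharing difference without DEK replicate 1 passed the test. Against the long-arm ends the density ratios were 0.965 for DEK replicate 2, 0.677 for shared intervals and 0.907 and 0.947 for the H3K4me3 lists. Within GC strata they were 0.786 for shared intervals and 0.942 for H3K4me3 replicate 2. The DEK replicate 1 ratio was 1.12 for the first 5 Mb and 1.16 at a score of at least 100. The difference in the share of replicate 1 peaks met by H3K4me3 was 4.34 percentage points with peaks of either H3K4me3 list and, with each H3K4me3 replicate left out, -3.78 to 5.0. In DEK replicate 2 it was -0.0482 for the first 2 Mb, -0.152 for the first 5 Mb, -1.07 at a score of at least 100 and -0.105 to 0.615 with each H3K4me3 replicate left out. The lower share of replicate 2 peaks met by replicate 1 no longer passed the test for the first 5 Mb (-1.20 percentage points), at a score of at least 100 (-0.209) and at overlaps of 50% (-1.03). The density ratio of DEK replicate 2, 2.74, passed with the Wilcoxon test. The cause of these changes was not tested.

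With both DEK lists averaged, leaving out each DEK replicate gave density ratios from 0.958 to 2.74, sharing differences from -1.39 to 11.4 percentage points and H3K4me3 differences from -3.12 to 0.0871. DEK replicate 1 alone gave the lowest density ratio and replicate 2 alone the highest. The mean H3K4me3 ratio was 1.57 to 1.61 with each H3K4me3 replicate left out. These averages and the H3K4me3 settings that leave out a list were in part added after the data were seen. The sign and Wilcoxon tests paired the segment and the rest of each chromosome. By replicate number, no paired analysis was possible because no label ties DEK, H3K4me3 and input samples of equal number to the same culture. No test reported here compares, as groups, the DEK, H3K4me3 and input groups that share replicate numbers. The added contrasts of DEK replicate 2 with each H3K4me3 list compare single libraries, with their chromosomes as units. With 2 precipitations of 1 cell line, the spread between DEK precipitations was not estimated, and the lists do not give the depth behind them.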
